A study of Pongo abelii with 6 samples.

Results

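Vesicle traffic genes, which carry proteins and membrane between the compartments of a cell, were measured in a pair of induced pluripotent stem cell lines from the orangutan Pongo abelii. Such lines are made from body cells by reprogramming and can form all tissues. Genes were taken by name: protein-coding symbols of the RAB, ARF, SAR1, SEC, COP, SNX, VPS, CHMP, STX, VAMP, AP1 to AP4, EXOC and TRAPPC families. Of 264 such symbols that RefSeq lists for the assembly NHGRI_mPonAbe1-v2.0_pri, 130 had a transcript in the deposited table, and they make up 130 of 15205 genes with a symbol. The other 134 were not analysed here, among them many close relatives of those described. The level of a gene is the sum of TPM (a length-corrected share of a library's transcripts, scaled to one total in every library) over its named transcripts. There were 227 such transcripts, and 87 of the 130 genes had only 1.

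The libraries came from the line Djasinga (3 libraries) and the line Dokana (3 libraries). Both lines were grown in iPS-Brew medium on Matrigel with 1 uM IWR1 and 0.5 uM CHIR, small molecules that act on Wnt signalling, and total RNA was depleted of ribosomal RNA. The labels name no genetic change, no age and no clone for either line. Their treatment field speaks of differentiated cells and their genotype field of small RNA, where titles and cell type describe stem cells and total RNA. Titles call the libraries biological replicates, and the design text calls the 3 sequential passages of a line technical replicates, so SDs and p-values cover the spread between passages and not between animals.

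Traffic runs by budding and fusion. Small GTPases of the SAR1, ARF and RAB families switch coats and tethers on. COPII coats bud from the endoplasmic reticulum, COPI coats return from the Golgi, and AP adaptors load clathrin-coated and related vesicles. Tethers such as exocyst and TRAPP catch a vesicle and SNAREs fuse it. Retromer and sorting nexins recycle cargo from endosomes, and ESCRT proteins sort cargo into them and cut membrane necks.

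Markers of the labelled cell type were present in all 6 libraries. The 8 named genes of 14 in the core pluripotency list summed to 297 to 376 TPM in Djasinga and 408 to 510 TPM in Dokana. CD24 held the largest part, at a mean of 132 TPM in Djasinga and 152 TPM in Dokana. NANOG averaged 49.9 TPM in Djasinga and 78.3 TPM in Dokana, and POU5F1 had no named transcript. Summed lineage markers were low: neuroectoderm had 8.29 to 10.8 TPM in Djasinga and 10.7 to 11.1 TPM in Dokana, and mesendoderm and mesoderm had 3.55 to 3.71 TPM in Djasinga and 4.32 to 5.61 TPM in Dokana. Endoderm had 0.337 to 1.60 TPM in Djasinga and 0.414 to 0.938 TPM in Dokana, and trophoblast and amnion had 0.0758 to 0.431 TPM in Djasinga and 0.178 to 0.493 TPM in Dokana. The fibroblast list, with 8 of 10 genes named, summed to 38.1 to 68.1 TPM in Djasinga and 62.8 to 82.7 TPM in Dokana, mostly from THY1, which pluripotent cells also carry. No named marker was listed at 0 in all 6 libraries, and 26 of the 33 named lineage and fibroblast entries averaged under 1 TPM. Markers of regulated secretion in neurons, with 4 of 9 genes named, summed to 13.0 to 15.3 TPM in Djasinga and 14.5 to 19.9 TPM in Dokana. The most abundant transcript of each library, which has no symbol, took 26.7% to 42.4% of the TPM of Djasinga libraries and 16.9% to 28.2% of those of Dokana. The depth of sequencing is unknown, since TPM does not carry it.

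Most vesicle traffic genes were expressed at moderate levels. Of the 130, 33 averaged at least 10 TPM over the 6 libraries, 61 averaged 1 to 10 TPM and 36 averaged under 1 TPM. The 10 most abundant held 38.7% of the summed level. The sum over all 130 came to 1112, 919 and 901 TPM for Djasinga, in order of replicates 1 to 3, and to 1244, 1117 and 1456 TPM for Dokana. As a share of all named protein-coding TPM, this was 1.35% to 1.5% in Djasinga and 1.38% to 1.44% in Dokana. These values overlapped between the lines. Transcripts without a symbol held 86.2% to 88.1% of the TPM of Djasinga libraries and 82.4% to 84.9% of those of Dokana. They include the most abundant transcript of each library. They may hold more RNA from these genes, so all levels are of named transcripts.

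**Figure D1:**
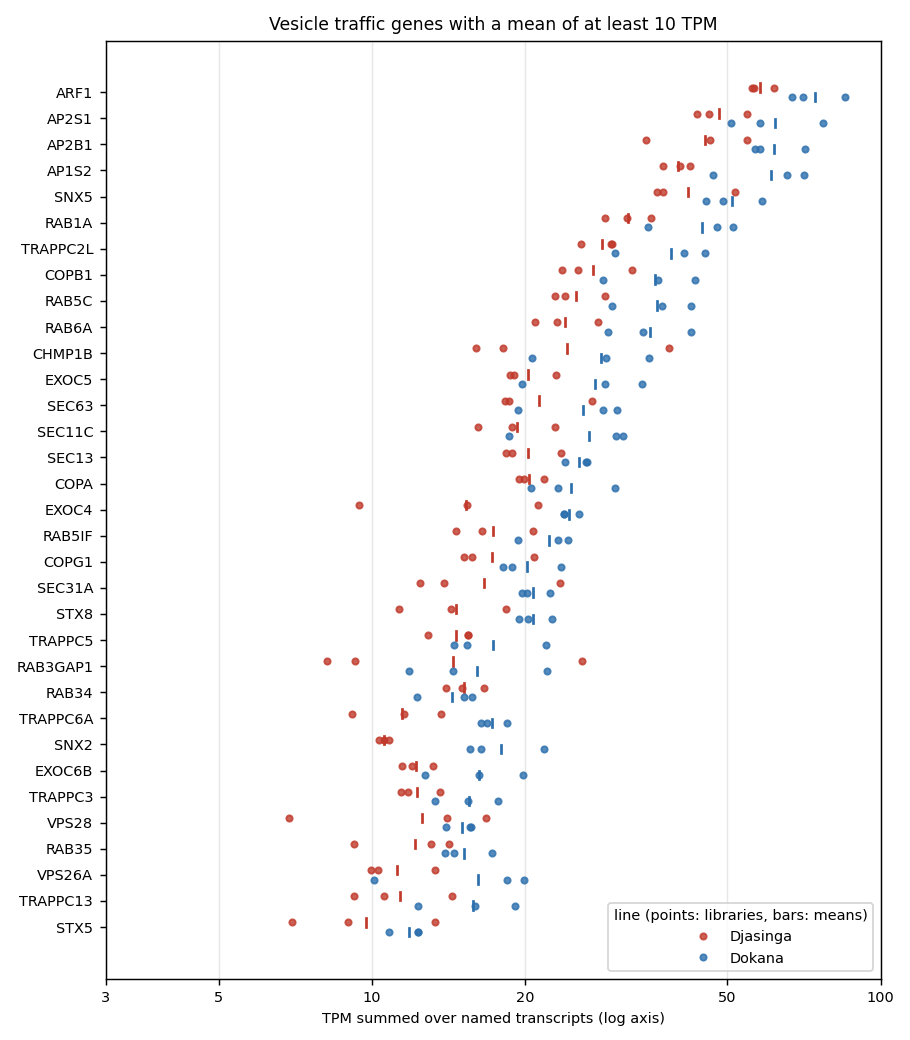
TPM (log axis) of the 33 vesicle traffic genes that averaged at least 10 TPM, with a point for each of the 3 libraries of Djasinga and of Dokana and a bar at each line's mean. ARF1 stands highest at a mean of 66.1 TPM, and for most genes the Djasinga points lie to the left of or among the Dokana points. For some, such as CHMP1B, RAB3GAP1, SEC31A, VPS28, RAB34 and STX5, a Djasinga point lies farthest to the right.

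No vesicle traffic gene passed the test between the lines. A gene entered the test if it reached 1 TPM in 3 or more libraries, which 96 of the 130 met. Of these 96, 0 had an adjusted p under 0.05 (limma on log2(TPM + 1) across 6255 genes, Benjamini-Hochberg adjustment), where 0.352% of all genes tested did. At an unadjusted p under 0.05, 12 of 96 (12.5%) were lower in Djasinga, against a background of 13.9% of all genes, and 0 were higher, against 0.895%. The smallest adjusted p was 0.283, for SNX2. With the replicate number as a block, 0 of 96 were called (limma, against 0.0799% of all genes), and 5 of 96 (5.21%) were lower at an unadjusted p under 0.05, against 9.38% of all genes. Fitted over protein-coding genes alone, 0 of 96 were called (limma, against 0.943% of those genes), and 15 were lower at an unadjusted p under 0.05 (15.6%, against 19.2%). These shares stood near or below those of the whole table.

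The direction of the differences was that of the whole table. The median log2 difference, Djasinga minus Dokana, was -0.30 over the 96 genes and -0.29 over all 6255 genes, and 86 of the 96 stood lower in Djasinga. Differences are on the log2(TPM + 1) scale, which understates those of low genes. The most abundant transcript of each library took a higher range of shares in Djasinga, and its part in this shift was not tested. In bulk RNA, fewer cells of a type and less RNA per cell cannot be told apart. After median-ratio scaling, which sets the typical gene equal between libraries, the medians were -0.01 and -0.02, and 45 of the 96 were higher and 51 lower. On that scale 0 of 96 passed the threshold (limma), where 0.32% of all genes did, and at an unadjusted p under 0.05 there were 3 higher (3.12%, against 3.13% of all genes) and 0 lower (against 4.4%). As deposited, the 3 libraries of Djasinga lay wholly below those of Dokana for 19 of 96 genes (19.8%, against 24.5% of all genes) and wholly above for 0 (against 1.18%). After scaling it was 6 below (6.25%, against 7.8%) and 8 above (8.33%, against 5.36%).

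**Figure D2:**
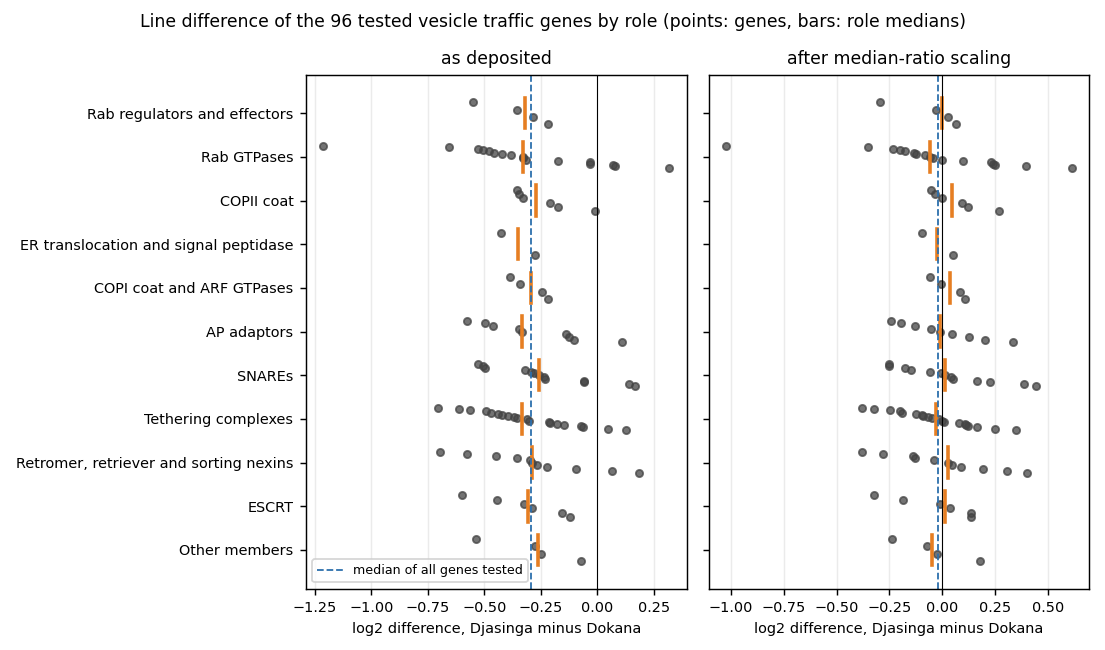
Log2 difference between the lines, Djasinga minus Dokana, of the 96 tested vesicle traffic genes by role, as deposited (left) and after median-ratio scaling (right). Each point is a gene, orange bars are role medians and the dashed line is the median of all 6255 genes tested. Role medians lie between -0.35 and -0.26 as deposited and between -0.06 and 0.04 after scaling, and RAB33B is the point farthest to the left.

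Rab GTPases give each compartment its identity. Of 29 named, 17 were tested, with a median log2 difference of -0.33. RAB1A, which acts between the endoplasmic reticulum and the Golgi, was the most abundant, at 35.3, 31.7 and 28.7 TPM in Djasinga, against 47.7, 34.8 and 51.2 TPM in Dokana, in order of replicates 1, 2 and 3. RAB5C, of early endosomes, had 22.9, 23.9 and 28.7 TPM in Djasinga and 37.1, 29.6 and 42.5 TPM in Dokana. The lines overlapped slightly for RAB1A and did not for RAB5C. RAB6A, a Rab of the Golgi, had 27.8, 23.1 and 20.9 TPM in Djasinga and 34.2, 29.1 and 42.3 TPM in Dokana. For RAB6A the lines did not overlap, also after scaling. Log2 differences were -0.46, -0.51 and -0.53 (limma adjusted p 0.337, 0.330 and 0.330).

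RAB33B, a Golgi Rab with a role in autophagy, had the largest difference of all vesicle traffic genes tested, as deposited and after scaling. It had 2.36, 0.844 and 0.0488 TPM in Djasinga, against 3.47, 2.72 and 3.86 TPM in Dokana. The lines did not overlap, and Djasinga replicate 3 was lowest by far. The log2 difference was -1.21 (SE 0.41, limma adjusted p 0.326), or -0.92 with the median gene set to 0. Without Djasinga replicate 3 it was -0.80. RAB4B, of recycling endosomes, was at 4.72, 7.02 and 5.20 TPM in Djasinga and 9.80, 7.34 and 11.3 TPM in Dokana (log2 difference -0.66, SE 0.23, limma adjusted p 0.326). Its libraries did not overlap as deposited and did after scaling.

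RAB9A and RAB34, named here after their values were seen, had the smallest p-values after scaling. RAB9A, which acts between late endosomes and the Golgi, was at 7.12, 8.17 and 7.51 TPM in Djasinga and 7.12, 5.30 and 5.37 TPM in Dokana. Its log2 difference was 0.32 as deposited and 0.61 after scaling (limma adjusted p 0.379 and 0.480). RAB34, known for a role in the growth of primary cilia, was at 16.6, 14.0 and 15.1 TPM in Djasinga and 15.2, 12.3 and 15.7 TPM in Dokana, with log2 differences of 0.08 and 0.40 (limma adjusted p 0.790 and 0.460). For both genes the lines did not overlap after scaling, and Djasinga was the higher. Of the 29 Rabs, 12 did not enter the test. They include RAB27A, a Rab of melanosomes and secretory granules (mean 0.667 TPM), RAB17, of epithelial cells (0.00404 TPM), and RAB26, of secretory granules (0.0709 TPM).

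Of 5 Rab regulators and effectors, 4 were tested. RAB5IF, a small protein of the endoplasmic reticulum membrane despite its name, was at 17.3 ± 3.12 TPM in Djasinga and 22.3 ± 2.59 TPM in Dokana (SD, n = 3 each). RAB3GAP1, a subunit of a complex that regulates RAB3 and RAB18, was at 25.9, 8.16 and 9.26 TPM in Djasinga and 11.9, 22.1 and 14.4 TPM in Dokana. It was high in 1 library of each line, and its line difference of -0.29 (SE 0.44) is smaller than the spread within either. The difference was 0.03 after scaling, -0.78 without Djasinga replicate 1, 0.0013 without Djasinga replicate 2, -0.08 without Djasinga replicate 3, -0.47 without Dokana replicate 1 and -0.05 without Dokana replicate 2. RAB3IP, an activator of RAB8, was at 4.88 ± 2.19 TPM in Djasinga and 5.54 ± 0.772 TPM in Dokana. RAB11FIP3, an effector of RAB11, was at 2.35 ± 0.776 TPM in Djasinga and 3.90 ± 1.17 TPM in Dokana (log2 difference -0.55, SE 0.26, limma adjusted p 0.347). Its difference was -0.36 without Djasinga replicate 2 and -0.37 without Dokana replicate 3.

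All 6 named COPII genes were tested, with a median log2 difference of -0.27. SEC13 and SEC31A, which form the outer cage, were close in level, at 20.3 ± 2.86 and 16.6 ± 5.97 TPM in Djasinga and 25.6 ± 1.43 and 20.8 ± 1.47 TPM in Dokana. SAR1A, the GTPase that starts the coat, was at 10.6, 5.05 and 8.74 TPM in Djasinga and 15.2, 6.99 and 7.16 TPM in Dokana, and the lines overlapped. SEC16A, a scaffold of exit sites, was at 5.92 ± 0.957 TPM in Djasinga and 6.96 ± 2.24 TPM in Dokana. The cargo-binding subunits SEC24A and SEC24D were lower than the cage, at 6.12 ± 1.70 and 4.88 ± 2.47 TPM in Djasinga and 7.94 ± 0.993 and 4.63 ± 0.846 TPM in Dokana. SEC24A made up 57.0% ± 6.31 of the sum of both in Djasinga and 63.3% ± 3.35 in Dokana (two-sided exact permutation p 0.3, and 0.1 is the smallest that 3 against 3 libraries allow).

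SEC31A had 18 named transcripts, the most of any gene here, and one of them had the smallest p among vesicle traffic transcripts. Of 120 transcripts tested, 0 had an adjusted p under 0.05 (limma across 22561 transcripts), where 1.03% of all did. At an unadjusted p under 0.05, 16 (13.3%) were lower in Djasinga, against 13.1% of all, and 0 higher, against 1.4%. The SEC31A transcript XM_024245623.1 had 1.31, 0.604 and 0.745 TPM in Djasinga and 3.15, 2.49 and 2.80 TPM in Dokana. The lines did not overlap, and the log2 difference was -1.03 (SE 0.21, limma adjusted p 0.0821, or 0.180 after scaling). Its share of SEC31A was 5.30% ± 0.848 in Djasinga and 13.6% ± 1.78 in Dokana (SD, n = 3 each). The share of XM_024245617.1 was 33.4% ± 6.77 in Djasinga and 24.4% ± 3.38 in Dokana, and that of XM_024245614.1 was 15.4% ± 6.33 in Djasinga and 25.04% ± 4.38 in Dokana. Isoforms of 1 gene can share exons, and no source used here says how reads were split among them.

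**Figure D3:**
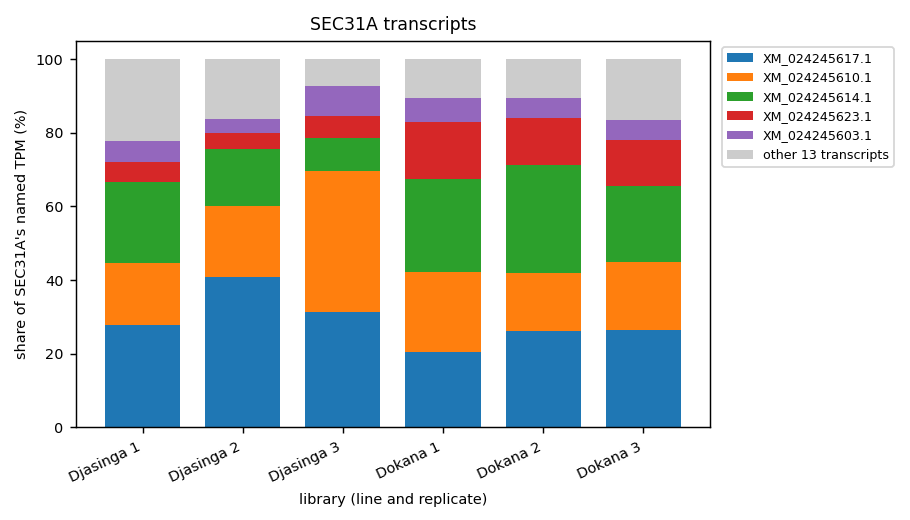
Share (%) of each library's SEC31A TPM held by the 5 named transcripts largest over all 6 libraries and by the other 13, for the 3 Djasinga and the 3 Dokana libraries. The red segment, XM_024245623.1, is between 4.35% and 5.99% in Djasinga and between 12.5% and 15.6% in Dokana.

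SEC63 and SEC11C act as proteins enter the endoplasmic reticulum, SEC63 at the translocation channel and SEC11C in the signal peptidase. SEC63 was at 18.3, 18.6 and 27.1 TPM in Djasinga and 28.5, 19.4 and 30.3 TPM in Dokana. SEC11C was at 18.8, 16.2 and 22.9 TPM in Djasinga and 31.1, 18.6 and 30.2 TPM in Dokana. Both were low in Dokana replicate 2 and in Djasinga replicates 1 and 2, and the lines overlapped for both (limma adjusted p 0.518 and 0.388).

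ARF1, the GTPase that recruits COPI and adaptors to the Golgi, was the most abundant vesicle traffic gene. It was at 61.8, 55.8 and 56.4 TPM in Djasinga and 70.3, 67.1 and 85.3 TPM in Dokana. The lines did not overlap, and the log2 difference of -0.34 (SE 0.17, limma adjusted p 0.353) was -0.05 relative to the median gene and -0.01 after scaling. The COPI subunits COPB1, COPA and COPG1 stood at 27.2 ± 4.62, 20.4 ± 1.24 and 17.3 ± 3.15 TPM in Djasinga and 36.0 ± 7.38, 24.6 ± 4.87 and 20.2 ± 2.92 TPM in Dokana. That order was the same in both lines. COPZ2, an alternative small COPI subunit, was listed at 0 in all 6 libraries.

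Of 12 AP adaptor subunits, 9 were tested, and 3 were among the 4 genes with a mean of at least 50 TPM. AP2S1 and AP2B1 belong to AP-2, the clathrin adaptor of the plasma membrane. AP2S1 was at 43.5, 54.6 and 46.0 TPM in Djasinga and 58.0, 50.8 and 77.1 TPM in Dokana. AP2B1 was at 54.6, 46.2 and 34.5 TPM in Djasinga and 56.6, 57.9 and 71.0 TPM in Dokana. The lines overlapped for AP2S1 and not for AP2B1 (limma adjusted p 0.394 and 0.343). AP1S2, a small subunit of the Golgi and endosome adaptor AP-1, was at 42.3, 40.4 and 37.4 TPM in Djasinga and 65.5, 46.9 and 70.8 TPM in Dokana. It did not overlap, also after scaling (log2 difference -0.58, SE 0.20, and -0.24 after scaling, limma adjusted p 0.326 and 0.763). AP3B2, the neuronal form of an AP-3 subunit, averaged 0.572 TPM and AP1S3 0.379 TPM, and neither entered the test.

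Of 17 genes grouped as SNAREs by name, SEC22A and SEC22C among them, 13 were tested, with a median log2 difference of -0.26. STX8, of late endosomes, was the highest at 18.4, 14.3 and 11.3 TPM in Djasinga and 20.3, 19.4 and 22.6 TPM in Dokana, without overlap (log2 difference -0.50, SE 0.21, limma adjusted p 0.336). STX5, of the Golgi, stood at 9.75 ± 3.25 TPM in Djasinga and 11.8 ± 0.860 TPM in Dokana. VAMP7, of lysosomes and late endosomes, was at 8.80, 4.45 and 5.22 TPM in Djasinga and 5.02, 8.0 and 5.97 TPM in Dokana. It was highest in the 2 libraries in which RAB3GAP1 was. STX16, of the trans-Golgi network, was at 6.32, 4.72 and 2.24 TPM in Djasinga and 5.70, 6.79 and 6.80 TPM in Dokana (log2 difference -0.53, SE 0.31, limma adjusted p 0.387; -0.20 without Djasinga replicate 3). STX11, known from immune cells, averaged 0.00488 TPM. STX1A and VAMP1 are known from nerve terminals. STX1A was at 0.39 ± 0.124 TPM in Djasinga and 0.184 ± 0.0369 TPM in Dokana, and VAMP1 was at 1.53 ± 0.274 TPM in Djasinga and 2.10 ± 0.650 TPM in Dokana.

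Shares among the named syntaxins were compared because a share does not depend on how a library was scaled. Family members without a named transcript are left out, so these are not shares of whole families. STX8 made up 29.8%, 31.1% and 28.5% of the summed level of the 11 named syntaxins in Djasinga and 34.9%, 33.1% and 34.5% in Dokana. STX1A made up 0.835%, 0.849% and 0.670% in Djasinga and 0.273%, 0.286% and 0.346% in Dokana. Neither overlapped. These were the only 2 of 19 shares in 4 families (SEC24, VPS37, VAMP and STX) that reached the smallest two-sided exact permutation p of 0.1, and adjusted over the 19 it was 0.792 for both. Among the 4 named VAMP genes, VAMP7 held 56.9% ± 9.29 in Djasinga and 52.2% ± 8.84 in Dokana.

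Tethers catch a vesicle before it fuses. Of 25 named, 20 were tested, with a median log2 difference of -0.33. In the exocyst, which docks vesicles at the plasma membrane, EXOC5 and EXOC4 stood at 20.2 ± 2.43 and 15.3 ± 5.87 TPM in Djasinga and 27.5 ± 7.19 and 24.4 ± 0.955 TPM in Dokana. EXOC6B and EXOC3 stood at 12.2 ± 0.892 and 7.06 ± 1.35 TPM in Djasinga and 16.3 ± 3.55 and 8.10 ± 1.3 TPM in Dokana. EXOC1 stood at 2.41 ± 1.48 TPM in Djasinga and 2.37 ± 0.354 TPM in Dokana. EXOC1, the lowest of these 5, had its highest value of 4.10 TPM in Djasinga replicate 1.

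EXOC4 had the second largest difference as deposited. It was at 21.2, 15.4 and 9.45 TPM in Djasinga and 23.9, 23.9 and 25.5 TPM in Dokana, without overlap (log2 difference -0.70, SE 0.28, limma adjusted p 0.332). The log2 difference was -0.38 after scaling and -0.41 without Djasinga replicate 3, and on neither was it second. VPS51, of the GARP complex at the Golgi, was at 7.58, 5.56 and 2.72 TPM in Djasinga and 7.88, 8.26 and 8.08 TPM in Dokana (log2 difference -0.61, SE 0.31, limma adjusted p 0.359; -0.27 without Djasinga replicate 3). In both genes Djasinga replicate 3 was the lowest library and Djasinga replicate 1 was close to Dokana.

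TRAPP subunits act in traffic to and within the Golgi. TRAPPC2L was the highest, at 29.7, 29.5 and 25.8 TPM in Djasinga and 41.0, 30.0 and 45.3 TPM in Dokana. TRAPPC6A was at 13.7, 11.6 and 9.13 TPM in Djasinga and 16.8, 16.4 and 18.5 TPM in Dokana (log2 difference -0.56, SE 0.19, limma adjusted p 0.326). TRAPPC8 was at 7.02, 5.85 and 6.16 TPM in Djasinga and 9.70, 7.52 and 11.1 TPM in Dokana (log2 difference -0.49, SE 0.20, limma adjusted p 0.331). None of the 3 overlapped between the lines as deposited, and after scaling TRAPPC8 still did not. TRAPPC4 was listed at 0 in Dokana replicate 1 and lay between 1.40 and 4.62 TPM in the other 5 libraries.

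Of 15 retromer and sorting nexin genes, 11 were tested. SNX5, an endosomal coat protein that bends membrane, was the highest at 51.8, 36.3 and 37.3 TPM in Djasinga and 48.9, 45.3 and 58.6 TPM in Dokana, with overlap. SNX2, a protein of the same kind, was at 10.6, 10.8 and 10.3 TPM in Djasinga and 15.6, 21.8 and 16.4 TPM in Dokana. Its Djasinga libraries agree closely, and all lie below Dokana. The log2 difference was -0.69 (SE 0.18, limma adjusted p 0.283), and -0.38 after scaling (limma adjusted p 0.830), where the lines overlapped.

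SNX1, which pairs with SNX5 in these coats, was at 8.89 ± 2.91 TPM in Djasinga and 10.5 ± 2.90 TPM in Dokana. VPS26A, a core retromer subunit, was at 11.2 ± 1.84 TPM in Djasinga and 16.1 ± 5.30 TPM in Dokana. SNX19 was at 5.53, 4.29 and 5.52 TPM in Djasinga and 7.24, 7.71 and 9.40 TPM in Dokana, without overlap on either scale (log2 difference -0.58, SE 0.19, and -0.28 after scaling, limma adjusted p 0.316 and 0.773). SNX22 was the third gene with an unadjusted p under 0.05 after scaling (log2 difference 0.40 there and 0.18 as deposited, limma adjusted p 0.602 and 0.572). As deposited its difference was 0.11 without Dokana replicate 1 and 0.31 without Dokana replicate 3. SNX18, SNX20, SNX31 and SNX16 did not enter the test, with means of 0.00493, 0.198, 0.138 and 0.559 TPM.

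All 6 named ESCRT genes were tested. CHMP1B, of the ESCRT-III filaments that cut membrane necks, was at 38.4, 18.1 and 16.03 TPM in Djasinga and 20.6, 35.1 and 28.9 TPM in Dokana. Its order of libraries resembled that of RAB3GAP1, with Djasinga replicate 1 and Dokana replicate 2 highest. CHMP3, also of ESCRT-III, was at 2.71 ± 0.759 TPM in Djasinga and 3.99 ± 0.282 TPM in Dokana (limma adjusted p 0.339). Of the ESCRT-I subunits, VPS28 was at 16.8, 14.1 and 6.87 TPM in Djasinga and 14.0, 15.6 and 15.7 TPM in Dokana. VPS37A was at 5.79, 4.47 and 1.85 TPM in Djasinga and 5.46, 6.65 and 6.42 TPM in Dokana (log2 difference -0.60, SE 0.33, limma adjusted p 0.373; -0.23 without Djasinga replicate 3). Both were lowest in Djasinga replicate 3, while VPS37C, an alternative to VPS37A in the complex, was at 5.02, 4.84 and 5.06 TPM in Djasinga and 5.06, 5.08 and 6.97 TPM in Dokana.

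The name rule also took 8 genes outside these groups, 4 of them tested. VPS45, which assists SNARE pairing, was at 6.27, 5.93 and 5.44 TPM in Djasinga and 7.49, 9.70 and 9.86 TPM in Dokana, without overlap (log2 difference -0.53, SE 0.18, limma adjusted p 0.326). VPS13D, a lipid transfer protein, was at 2.31 ± 0.393 TPM in Djasinga and 2.56 ± 1.06 TPM in Dokana, and SEC14L2, a lipid-binding protein, at 2.10 ± 0.235 TPM in Djasinga and 2.87 ± 1.12 TPM in Dokana. VPS72, a subunit of a chromatin remodelling complex rather than a traffic protein, was at 0.895 ± 0.157 TPM in Djasinga and 1.27 ± 0.387 TPM in Dokana.

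Single libraries stood apart for some of these genes. After median-ratio scaling, Djasinga replicate 3 was lowest for 32 of the 96 genes (33.3%, against 26.1% of all genes tested) and the highest for 23 (24%, against 27.6%). In this library 9 genes lay more than 0.5 below the 6-library median on the log2 scale: RAB33B (-1.77), STX2 (-0.96), VPS37A (-0.93), VPS51 (-0.89), EXOC4 (-0.82), STX16 (-0.79), RAB37 (-0.74), VPS28 (-0.74) and VPS41 (-0.68). These 9.38% compare with 10.8% of all genes tested, and 7 genes (7.29%, against 10.4%) lay more than 0.5 above the median. Djasinga replicate 1 was highest for 30 of the 96 genes (31.2%, against 20.1%) and lowest for 11 (11.5%, against 23.5%). Leaving out Djasinga replicate 3, 0 of 94 genes were called (limma, against 0.0654% of all genes). In that fit 4 of 94 genes (4.26%) were lower in Djasinga at an unadjusted p under 0.05, against 8.78% of all genes.

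Djasinga replicate 1 and Dokana replicate 2 were the 2 highest libraries after scaling for 24 of the 96 genes (25%, against 13.5% of all genes tested). RAB3GAP1 lay 1.25 and 0.98 above the 6-library median on the log2 scale in these libraries, CHMP1B 0.90 and 0.72, and VAMP7 0.64 and 0.46. SEC24D and STX3 lay 0.76 and 0.79 above it in Djasinga replicate 1 and 0.21 and 0.16 in Dokana replicate 2. Across all genes tested, deviations from the line mean, on log2(TPM + 1) as deposited, correlated by 0.268 between these 2 libraries. This is a description over 6255 genes that share each library's scaling. The 2 libraries carry different replicate numbers, and this pairing was noticed in the data.

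**Figure D4:**
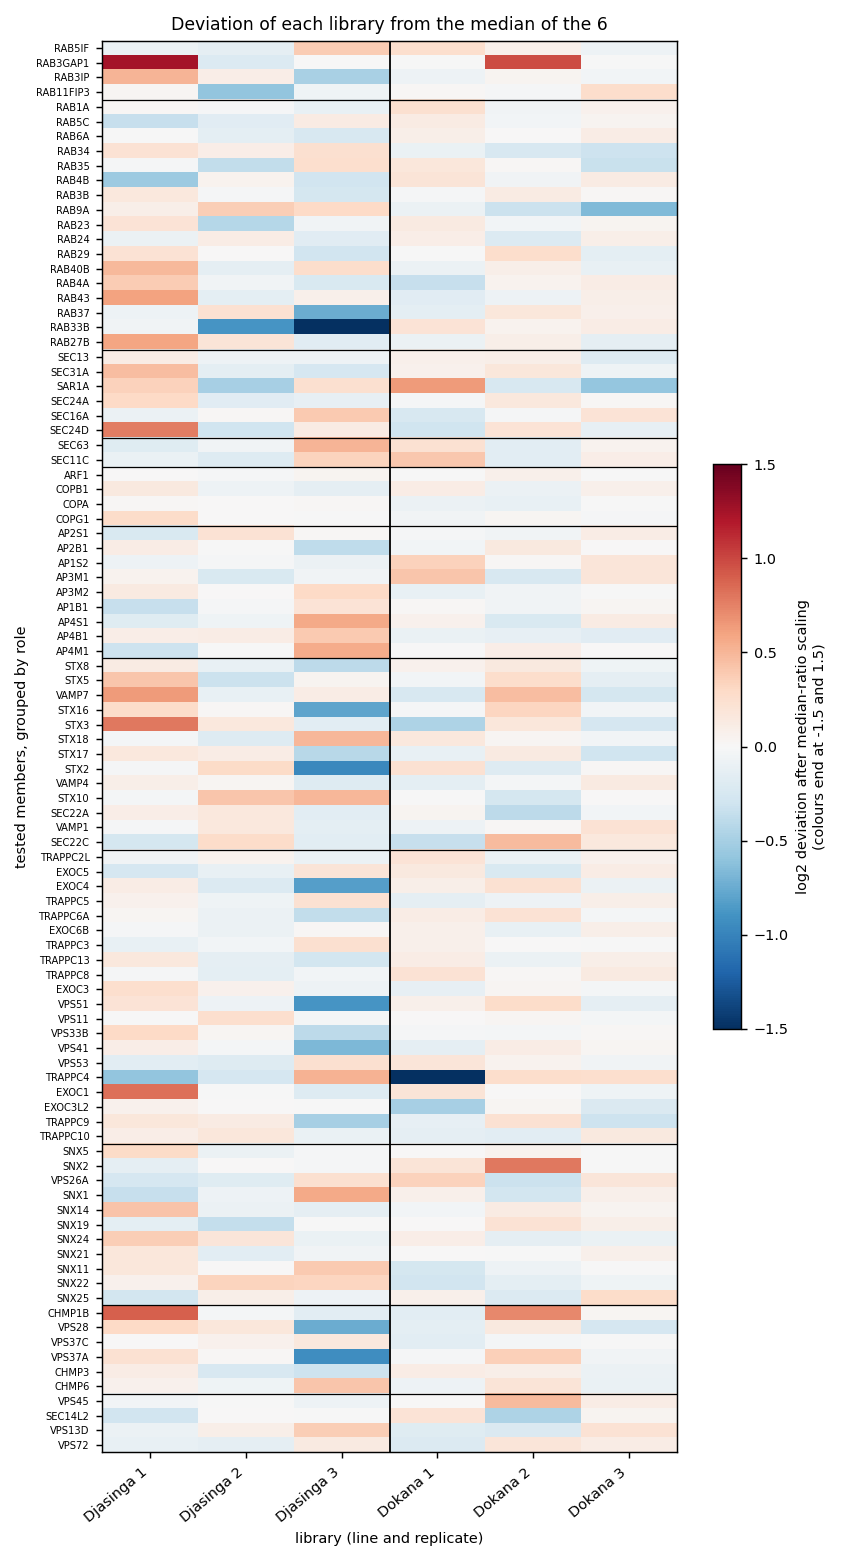
Log2 deviation of each library from the 6-library median after median-ratio scaling, for the 96 tested vesicle traffic genes (rows, grouped by role) in the 3 Djasinga and the 3 Dokana libraries (columns). RAB33B in Djasinga replicate 3 (-1.77) and TRAPPC4 in Dokana replicate 1, where it is listed at 0, both lie past the blue end of the colour scale. RAB3GAP1 and CHMP1B are red in Djasinga replicate 1 and Dokana replicate 2.

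The spread of these genes within a line was close to that of other genes. The median coefficient of variation after scaling was 21.2% in Djasinga and 12.7% in Dokana over the 96 genes, against 20.01% in Djasinga and 12.6% in Dokana over 5089 protein-coding genes tested. With a mean of at least 5 TPM it was 17.1% in Djasinga and 9.21% in Dokana over 58 genes, against 16.3% in Djasinga and 10.1% in Dokana over 2477.

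**Figure D5:**
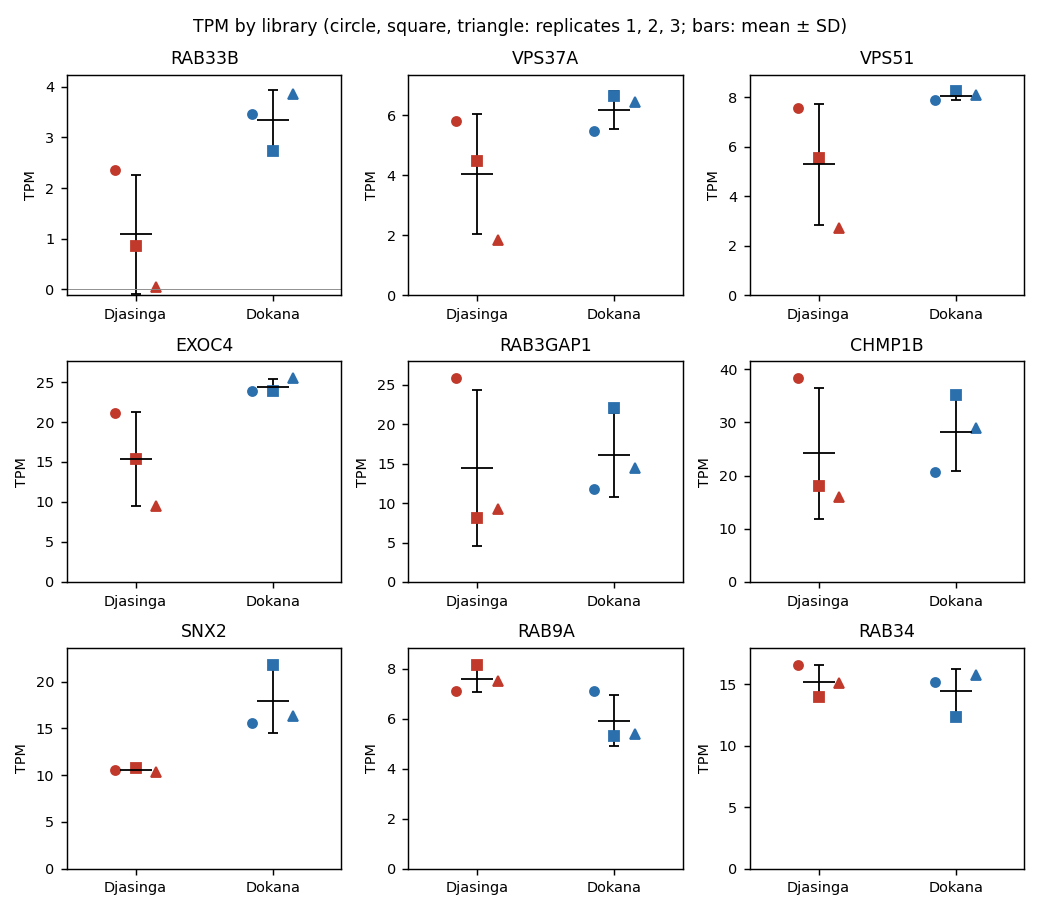
TPM of 9 vesicle traffic genes in each library of Djasinga and Dokana, with replicates 1, 2 and 3 as circle, square and triangle and bars for the mean ± SD (n = 3 each). RAB33B, VPS37A, VPS51 and EXOC4 are lowest in Djasinga replicate 3, RAB3GAP1 and CHMP1B are highest in 1 library of each line, and SNX2 does not overlap between the lines.

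Other genes of the pathway, from a list of 124 outside the name rule, showed no call either. Of these, 57 had a symbol in the table and 49 were tested. None had an adjusted p under 0.05 (limma, against 0.352% of all genes), with 8 lower (16.3%, against 13.9% of all genes) and 0 higher (against 0.895%) at an unadjusted p under 0.05. With the replicate block 3 of 49 were lower at that level (6.12%, against 9.38%), and after scaling 2 of 49 (4.08%, against 4.4%). The median log2 difference was -0.36, and -0.05 after scaling. GDI2, which holds Rab proteins in their inactive state, was far above any gene of the name rule, at 228, 181 and 145 TPM in Djasinga and 264, 247 and 296 TPM in Dokana (log2 difference -0.56, SE 0.21, limma adjusted p 0.326). CLTC, the clathrin heavy chain, was at 57.4 ± 1.40 TPM in Djasinga and 84.4 ± 21.0 TPM in Dokana, and COMMD1, of an endosomal recycling complex, at 31.9 ± 4.93 TPM in Djasinga and 42.9 ± 2.10 TPM in Dokana. These abundant genes had Djasinga libraries below those of Dokana.

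KDELR3 and MCFD2, which act between the endoplasmic reticulum and the Golgi, had the smallest p-values of that list. KDELR3, a receptor that returns resident proteins to the endoplasmic reticulum, was at 4.75, 2.71 and 2.01 TPM in Djasinga and 5.79, 8.08 and 7.45 TPM in Dokana (log2 difference -1.01, SE 0.28, and -0.74 after scaling, limma adjusted p 0.283 and 0.597). MCFD2, part of a cargo receptor for secreted proteins, was at 4.92, 3.83 and 4.31 TPM in Djasinga and 6.11, 9.65 and 9.41 TPM in Dokana (log2 difference -0.79, SE 0.22, limma adjusted p 0.283). The lines did not overlap for either gene as deposited.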

How the data were processed

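TPM per transcript was deposited by the authors, per the file headers, in columns of one common total; columns were tied to libraries through the library names in the labels. STAR, StringTie, FastQC 0.11.9 and Trimmomatic 0.39 are named in the submitters' processing notes without roles; no build, annotation or quantifier is given in the sources used here. RefSeq accessions were matched to symbols without their version, which named 22112 of 43705 (50.6%), and TPM was summed per symbol. Members, lists and tests were chosen with earlier results of these data known.

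Limma-trend was run on log2(TPM + 1), Djasinga minus Dokana, over all genes or transcripts that reached 1 TPM in 3 or more libraries. The pseudocount understates fold changes of low genes. Genes named were, per role, the 3 highest by mean TPM and the 2 with the smallest p, plus the 10 largest differences, any call, and the 3 highest and 3 smallest p of the other list; further ones were picked with their values known. The labels give the replicate number under a batch tag, so it was taken to pair libraries, although deviations of same-numbered libraries correlated by -0.0930, -0.130 and 0.152. Scripts were tested on simulated data. Alternatives covered the block, scaling, pseudocount, filters, gene class, accession version, limma settings and leaving out each library. Python 3.11.15, pandas 2.3.3, numpy 2.4.6, matplotlib 3.10.9, R 4.3.3 and limma 3.58.1 were used.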

Additional observations from a re-analysis of the deposited data

How the results depend on the processing

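No vesicle traffic gene, vesicle traffic transcript or gene of the other list passed the threshold (limma) under any setting run, and 35 genes, which include each one whose line difference or its p is given above, had adjusted p-values of 0.0604 to 1 over their alternatives. Other genes were described by levels and were not run gene by gene. Genes called between the lines numbered 22, against 5 with the replicate block, 1 with median-ratio scaling and the block, 10 with a pseudocount of 0.1, 9 with a mean of at least 5 TPM, 48 over protein-coding genes only, 0 with the accession version required, 3 with scaling over protein-coding genes and 3 with scaling while also leaving out Djasinga replicate 3. Leaving out each library gave 4 to 22. Vesicle traffic genes at an unadjusted p under 0.05 (limma) numbered 12, against 5 with the replicate block, 3 with median-ratio scaling and 3 with scaling and the block. There were 4 after quantile normalization, 4 with scaling without Djasinga replicate 3 and 5 with scaling over protein-coding genes. With the accession version required there were 2, but only 22 of the 130 genes matched with the version. The 0 genes called under that setting likewise rest on fewer genes. Leaving out each library gave 2 to 23 vesicle traffic genes at that unadjusted p. Transcripts called numbered 232, against 152 with the replicate block, 30 with scaling and the block, 107 with a pseudocount of 0.1, 99 without a filter, 81 with a mean of at least 5 TPM and 46 with scaling without Djasinga replicate 3; leaving out each library gave 37 to 186. The median log2 difference of the 96 genes was -0.30, against -0.0083 with median-ratio scaling, with or without the block, 0.015 after quantile normalization, 0.020 with scaling without Djasinga replicate 3 and -0.0035 with scaling over protein-coding genes; leaving out each library gave -0.39 to -0.22. With median-ratio scaling, 35 of the 96 genes turned from lower to higher in Djasinga and 0 the other way. Among the 35 genes run under every alternative, signs turned for RAB3GAP1 (0.028 with median-ratio scaling, with or without the block, 0.057 after quantile normalization, 0.033 with scaling over protein-coding genes, 0.21 with scaling without Djasinga replicate 3, and -0.78 to 0.0013 when leaving out each library), SEC63 (0.053 with median-ratio scaling, with or without the block, 0.077 after quantile normalization, 0.058 with scaling over protein-coding genes), SEC13 (0.027 after quantile normalization, 0.031 with scaling without Djasinga replicate 3, 0.0020 with scaling over protein-coding genes), VPS72 (0.0021 after quantile normalization), RAB34 (-0.026 without Dokana replicate 2, and up to 0.14 without another library) and, with scaling without Djasinga replicate 3, SEC24A (0.015), COPB1 (0.0045), AP2B1 (0.019), STX16 (0.068) and VPS37A (0.030). Leaving out 1 library moved the log2 difference by over 1.5 times for 16 of these 35 genes. Scaling over protein-coding genes and scaling without Djasinga replicate 3 were chosen after seeing the data. The cause of these changes was not tested. Unknown depth limits what can be said of genes near 1 TPM.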
